A study of Mus musculus with 5 samples.

Results

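The genes described here were 32 markers of the lung epithelium, the sheet of cells that lines alveoli and airways, measured in cells sorted from mouse lung by a reporter of Gli1-lineage mesenchyme. The members were chosen by symbol, as genes known from alveolar type 2 (AT2) cells, alveolar type 1 (AT1) cells, airway cells or epithelium in general. No measured value enters that rule, but earlier results of these data were known when it was set. All 32 were among the 23478 genes of the deposited count table, and all 32 passed the filter on low counts, which kept 15298 genes. The question was how much epithelial RNA these sorted libraries held, in which proportions, and whether it differed between genotypes.

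The study deleted Igf1r, the receptor for insulin-like growth factor 1, in Gli1-expressing lung mesenchyme and profiled the recombined cells on postnatal day 6. All 5 libraries came from mice with Gli1-CreERT2, a tamoxifen-inducible Cre recombinase under Gli1 control, and the Rosa26-eGFP reporter, and all pups received 100 µg of tamoxifen on days 0 and 1. The 2 controls carried 1 floxed and 1 wild-type Igf1r allele (Flox/Wildtype), so they too could lose 1 copy, and the 3 Igf1r-deleted libraries carried 2 floxed alleles (Flox/Flox). GFP-positive cells were collected with a cell sorter. The paper's methods name DAPI for excluding dead cells and stains for EPCAM, CD31 and CD45. They do not say whether any of these gated this sort. The mice were of mixed background and both sexes, and the labels do not say whether a library came from 1 pup or a pool.

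Gas exchange takes place across AT1 cells, which are thin and cover most of the alveolar wall, whereas cuboidal AT2 cells make and recycle surfactant, the lipid and protein film that lowers surface tension. Airways are lined by secretory club cells and by ciliated cells. Claudins and E-cadherin join these cells to each other, and keratins form their intermediate filaments. Fibroblasts and myofibroblasts, the cells labelled by Gli1-CreERT2, are not known as a source of surfactant proteins or secretoglobins. Of the 32 members, 11 are also known from other lung cells or from a wider range of tissues (Krt7, Krt8, Krt18, Krt19, Muc1, Hopx, Pdpn, Lpcat1, Lamp3, Cbr2 and Abca3).

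Library totals were 35116766 to 37597857 counts, and 17099 to 17239 genes had at least 1 count. Igf1r itself was 324 and 324 counts per 1000000 (CPM, with library sizes scaled by edgeR's TMM factors) in control 1 and control 2 and 139.7, 177 and 194 CPM in Igf1r-deleted 1, 2 and 3, in that order, which is also the order in which values are given throughout. Its log2 fold change, Igf1r-deleted minus control, was −0.93 ± 0.14 (SE), with an adjusted p of 0.354 in edgeR's quasi-likelihood test and 1.1e-05 in DESeq2. No gene passed an adjusted p of 0.05 in edgeR (0 of 15298, 0%). The cells were labelled as fibroblasts, and 20 markers of lung mesenchyme took 5.06% to 5.98% of all counts, led by Eln at 9149.6 to 17351, Mfap4 at 10245 to 13192 and Col3a1 at 6985 to 9797 CPM.

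The 32 epithelial members were detected in every library, with 12 (Elf3, Igf1r-deleted 3) to 21941 counts (Sftpc, Igf1r-deleted 2) per gene. Together they took 0.162% and 0.155% of the counts in the controls and 0.116%, 0.181% and 0.0843% in the Igf1r-deleted libraries. In bulk RNA, fewer cells of a type and less RNA per cell cannot be told apart. The summed CPM of the 20 mesenchymal markers was 27.9 to 61.6 times that of the members, with the lowest factor in Igf1r-deleted 2 and the highest in Igf1r-deleted 3. AT2 members made up 63.2% to 71.8% of the summed member CPM.

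**Figure D1:**
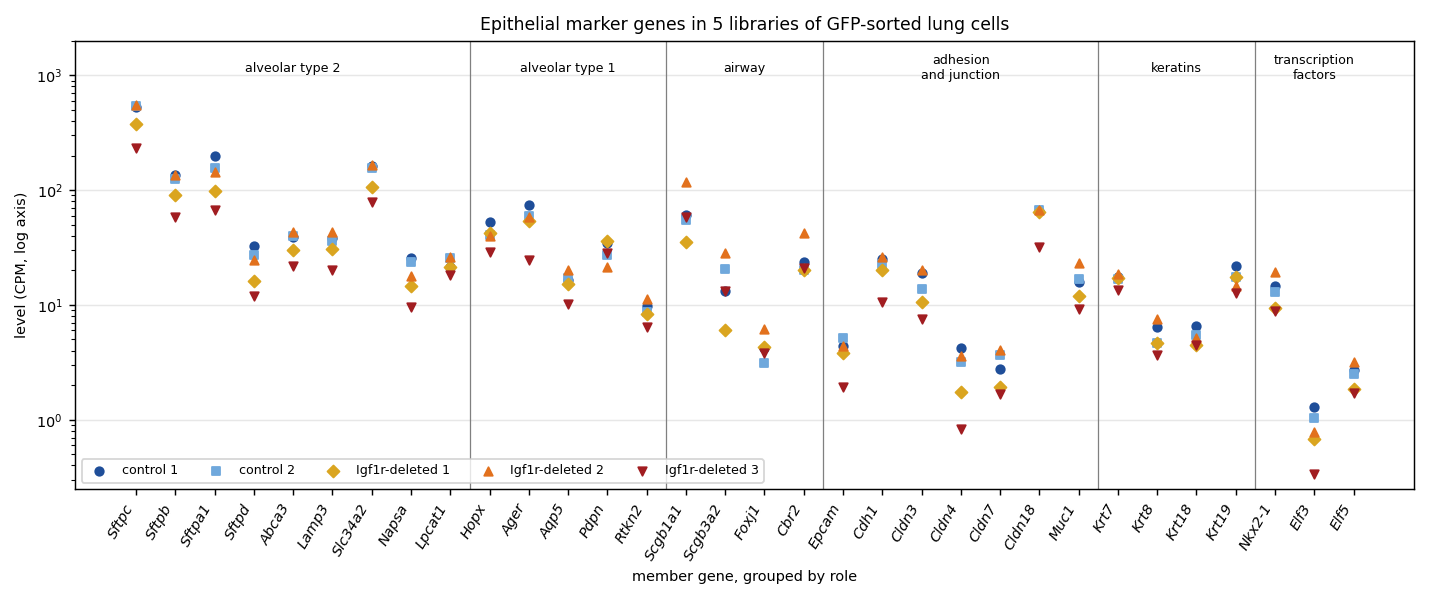
Level of each of the 32 members in each library (points, CPM, log axis), grouped by role, with 2 control and 3 Igf1r-deleted libraries. Sftpc stands highest at 233 to 552 CPM and Elf3 lowest. Igf1r-deleted 3 (dark red triangles) is the lowest library for 26 of 32 genes, beside 3118 of all 15298 genes tested.

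Per kilobase of exon and scaled to 1000000 per library (TPM), Sftpc was the highest member in all 5 libraries, at 2021 and 2150.0 TPM in controls and 1505, 2381 and 982 TPM in Igf1r-deleted libraries. The club cell secretoglobin Scgb1a1 was second in each library, at 503 and 471 TPM and 305, 1114 and 531 TPM. Sftpb (130.4 to 305 TPM) and Sftpa1 (103 to 273 TPM) followed with ranges that overlapped, as did those of Hopx, Slc34a2 and Ager (50.2 to 136 TPM for Ager). Elf5 (1.28 to 2.41 TPM) and Elf3 (0.657 to 2.304 TPM) were at the low end. For scale, Mfap4 was at 23244 to 28124 TPM.

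Surfactant proteins B and C are small hydrophobic proteins that spread the lipid film, and A and D are collectins of innate defense. Sftpc, which lies on the minus strand of mm10 at chr14:70520949-70524081, measured 530.3 and 543 CPM in controls and 379.8, 552 and 233 CPM in Igf1r-deleted libraries. For Sftpb (chr6:72304610-72314371, plus strand) the values were 134.1 and 126 CPM and 90.9, 135 and 58.8 CPM. In both genes Igf1r-deleted 2 lay just above the controls, Igf1r-deleted 1 below them and Igf1r-deleted 3 lowest, so the groups overlapped. Sftpa1 (chr14:41131782-41136452, plus strand) was measured at 198 and 157 CPM against 98.6, 143 and 67.4 CPM. Its neighbor Sftpd (chr14:41172214-41185149, minus strand) had 32.8 and 26.98 CPM against 16.1, 24.5 and 11.9 CPM. In these 2 collectin genes all 3 Igf1r-deleted libraries were below both controls. The log2 fold change of Sftpa1 was −0.79 ± 0.28 (edgeR unadjusted p = 0.0252, adjusted p = 0.364), and that of Sftpd was −0.77 ± 0.27 (edgeR unadjusted p = 0.0248, adjusted p = 0.364). The estimates for Sftpc (−0.47 ± 0.31) and Sftpb (−0.45 ± 0.29) had adjusted p-values of 0.540 and 0.533.

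For 13 of the 14 AT2 and AT1 members Igf1r-deleted 3 was the lowest library. The same held for all 7 adhesion and junction members and for 19 of 20 endothelial markers. Of all 15298 genes tested, 3118 were lowest in Igf1r-deleted 3 and 3054 were highest in Igf1r-deleted 2. These counts also stand beside those of the same kind given below. The proximal upstream sequences of 2 surfactant genes and of the AT1 gene Ager are shown as a description. They are the 250 bases before the RefSeq start (GRCm38.p6), 5′ to 3′ on the strand of the gene, for Sftpb at chr6:72304360-72304609, Sftpa1 at chr14:41131538-41131787 and Ager at chr17:34597600-34597849, all on the plus strand. Capitals mark matches on either strand to 3 searched motifs, CTCAAG (core of the NKX2-1 motif), TATAAA (the core box bound by TBP) and TGTTTAC (core of the FOXA motif), and no match overlaps another.
Sftpb: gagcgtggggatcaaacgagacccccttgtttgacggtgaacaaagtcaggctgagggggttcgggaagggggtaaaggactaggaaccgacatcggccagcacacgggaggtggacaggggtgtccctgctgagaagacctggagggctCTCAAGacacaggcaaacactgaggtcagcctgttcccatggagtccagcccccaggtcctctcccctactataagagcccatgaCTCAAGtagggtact
Sftpa1: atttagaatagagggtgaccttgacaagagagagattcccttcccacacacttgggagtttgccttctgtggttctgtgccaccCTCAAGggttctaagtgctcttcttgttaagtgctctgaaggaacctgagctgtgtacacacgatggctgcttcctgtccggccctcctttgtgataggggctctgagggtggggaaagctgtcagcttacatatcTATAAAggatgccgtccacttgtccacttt
Ager: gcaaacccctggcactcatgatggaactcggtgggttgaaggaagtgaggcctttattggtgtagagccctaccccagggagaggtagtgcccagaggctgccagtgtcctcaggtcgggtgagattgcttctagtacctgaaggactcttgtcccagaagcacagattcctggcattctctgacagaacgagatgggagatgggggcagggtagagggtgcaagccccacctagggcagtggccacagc
Sftpb held CTCAAG beginning 100 and 15 bases before its start, Sftpa1 held CTCAAG at 166 and TATAAA at 30 bases, and Ager held none of the 3. RefSeq windows were given for 23 members (27 windows). CTCAAG was in 3 of these 27 windows, beside 13.3% of 32851 windows of all genes. TATAAA was in 2 of 27 beside 12.4%, and TGTTTAC in 2 of 27 beside 3.17%. These are matches of letters, not measured binding.

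The other AT2 members serve surfactant lipid and phosphate handling. Abca3, the lipid pump of lamellar bodies, measured 38.9 and 39.7 CPM in controls and 30.4, 43.2 and 21.7 CPM in Igf1r-deleted libraries. Lamp3, a lamellar body membrane protein, had 38.6 and 36.1 CPM against 30.97, 42.8 and 20.3 CPM. The phosphate transporter Slc34a2 had 163 and 155 CPM against 107, 166 and 79.5 CPM. All 3 had Igf1r-deleted 2 highest and Igf1r-deleted 3 lowest, as Sftpc did, and their log2 fold changes were −0.31 ± 0.25, −0.25 ± 0.27 and −0.44 ± 0.27. Lpcat1, which remodels surfactant phosphatidylcholine, varied least of the AT2 members, at 21.3 and 25.8 CPM and 21.3, 26.2 and 18.1 CPM. Napsa encodes the aspartic protease napsin A, which takes part in processing the surfactant protein B precursor. It lies at chr7:44572380-44586862 (plus strand) and measured 25.7 and 23.9 CPM against 14.7, 17.8 and 9.601 CPM. Its groups did not overlap, and its log2 fold change of −0.82 ± 0.24 had the smallest unadjusted edgeR p of all members (0.00967), with an adjusted p of 0.354 in edgeR and 0.0759 in DESeq2. Of the Napsa exon bases, 18.9% overlap Gm15396 on the opposite strand, and the use of strand in counting is not given in the sources used here.

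Summed over the 9 AT2 members, the level was 1158 ± 35.2 CPM (SD, n = 2) in controls and 820.0 ± 316 CPM (SD, n = 3) in Igf1r-deleted libraries, and Igf1r-deleted 2 lay between the controls. The log2 ratio of these means was −0.50. It was −0.82 without Igf1r-deleted 2 and −0.26 without Igf1r-deleted 3. All 9 AT2 members had Igf1r-deleted 3 as their lowest library, and 6 of 9 had Igf1r-deleted 2 as their highest.

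AT1 members had smaller differences and less uniform orders. Ager, the receptor for advanced glycation end products and an abundant AT1 membrane protein (chr17:34597862-34600936, plus strand), measured 74.2 and 58.99 CPM in controls and 53.3, 57.8 and 24.7 CPM in Igf1r-deleted libraries. These groups did not overlap, and Igf1r-deleted 1 and 2 lay just under control 2. The log2 fold change was −0.56 ± 0.33 (edgeR adjusted p = 0.498). The homeodomain-only protein gene Hopx had 52.9 and 40.9 CPM against 42.5, 40.1 and 29.1 CPM, with 27.2% of its exon bases overlapping the antisense gene Hopxos. Aqp5, a water channel, had 16.6 and 17.03 CPM against 15.2, 20.1 and 10.2 CPM. Rtkn2 had 9.76 and 8.65 CPM against 8.42, 11.4 and 6.46 CPM. Groups overlapped for Hopx, Aqp5 and Rtkn2, with log2 fold changes of −0.33 ± 0.18, −0.15 ± 0.26 and −0.073 ± 0.25. Pdpn (podoplanin), also known from lymphatic endothelium, mesothelium and fibroblasts, was the exception among the 32. It had 34.5 and 27.4 CPM against 35.9, 21.5 and 28.4 CPM, the single member lower in Igf1r-deleted 2 than in Igf1r-deleted 3 (0.758-fold). The summed level of the 5 AT1 members was 170.4 ± 24.7 CPM (SD, n = 2) in controls and 135 ± 31.4 CPM (SD, n = 3) in Igf1r-deleted libraries.

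Igf1r-deleted 3 was the lowest library for none of the 4 airway members, and Igf1r-deleted 2 was the highest for all 4. Scgb1a1, the main secretory protein of club cells (chr19:9083636-9087958, minus strand), measured 60.7 and 54.8 CPM in controls and 35.5, 119 and 58 CPM in Igf1r-deleted libraries. A second secretoglobin, Scgb3a2, had 13.3 and 20.6 CPM against 6.06, 28.1 and 13.2 CPM. In both genes Igf1r-deleted 2 was highest and Igf1r-deleted 1 lowest, while Igf1r-deleted 3 lay within or just outside the range of the controls. Cbr2, a carbonyl reductase of club cells, had 23.8 and 20.1 CPM against 20.1, 42.1 and 20.98 CPM. Foxj1, the master transcription factor of motile cilia, had 4.23 and 3.14 CPM against 4.31, 6.16 and 3.79 CPM. Groups overlapped for all 4. Scgb1a1 (0.29 ± 0.43), Cbr2 (0.34 ± 0.32) and Foxj1 (0.37 ± 0.29) were the 3 members with a positive log2 fold change, and Scgb3a2 was at −0.096 ± 0.54. Without Igf1r-deleted 2 the estimates for Scgb1a1 (−0.31) and Cbr2 (−0.10) turned negative, and that for Foxj1 was 0.13. Summed airway levels were 102 and 98.6 CPM in controls and 65.97, 195 and 96.01 CPM in Igf1r-deleted libraries. Per 100 CPM of the 14 alveolar members this was 7.44 and 7.67 CPM in controls and 6.98, 15.0 and 15.5 CPM in Igf1r-deleted libraries, so Igf1r-deleted 2 and 3 shared an airway share that the other 3 libraries did not have.

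Most adhesion and junction members are found in several kinds of epithelium, whereas Cldn18, the highest of the 7, belongs mainly to alveolar epithelium. Cdh1, which encodes E-cadherin, had 25.1 and 22.6 CPM in controls and 20.3, 26 and 10.5 CPM in Igf1r-deleted libraries. Epcam, the antigen commonly used to stain lung epithelium, was low, with 4.35 and 5.102 CPM against 3.83, 4.401 and 1.92 CPM. Cldn18, the principal claudin of alveolar epithelium, had 66.3 and 66.9 CPM against 64.2, 67.2 and 31.7 CPM. Igf1r-deleted 3 stood apart in Cldn18, and the other 4 libraries lay close together. Cldn3 had 18.9 and 13.9 CPM against 10.7, 20.1 and 7.54 CPM. Cldn4 had 4.18 and 3.17 CPM against 1.76, 3.596 and 0.835 CPM. Cldn7 had 2.79 and 3.63 CPM against 1.93, 4.05 and 1.67 CPM. These 3 sealing claudins had a fold of 2.42 to 4.31 between Igf1r-deleted 2 and Igf1r-deleted 3, with the widest in Cldn4. Muc1, an apical membrane mucin, had 15.8 and 16.9 CPM against 11.9, 23.4 and 9.27 CPM. Igf1r-deleted 3 was the lowest library for all 7 genes, and groups overlapped for all 7. Their log2 fold changes ran from −0.82 ± 0.54 (Cldn4) to −0.14 ± 0.36 (Muc1).

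Keratins varied less. Krt7 had 17.4 and 16.7 CPM in controls and 17.03, 18.8 and 13.4 CPM in Igf1r-deleted libraries. Krt8 had 6.45 and 4.64 CPM against 4.704, 7.54 and 3.67 CPM, and its partner Krt18 had 6.54 and 5.46 CPM against 4.45, 5.18 and 4.45 CPM. Reads of Krt8 are uncertain, as 36.0% of its 31-base words also occur in other genes, with Krt8-ps sharing most. The same share was 26.2% for Hopx (most with Hopxos), 17.6% for Napsa (Gm15396), 15.0% for Cbr2 (Gm11771), 13.9% for Lamp3 (Ppid), 12.1% for Abca3 (D330041H03Rik, which overlaps 9.8% of its exon bases on the opposite strand), 11.4% for Krt18 (Gm5200) and 6.1% for Elf3 (Gm26642). Krt19 had 21.9 and 17.5 CPM against 17.4, 14.5 and 12.7 CPM. Groups did not overlap for Krt18 (−0.35 ± 0.20) and Krt19 (−0.41 ± 0.17, edgeR unadjusted p = 0.0504, adjusted p = 0.401), and Krt7 (−0.058) and Krt8 (−0.061) were near 0 on the log2 scale. Krt18 and Krt19 differed little between Igf1r-deleted 2 and 3 (1.16-fold and 1.15-fold).

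Among the transcription factors, Nkx2-1, which specifies lung epithelium and drives surfactant genes, had 14.6 and 13.01 CPM in controls and 9.49, 19.4 and 8.905 CPM in Igf1r-deleted libraries. Elf5 had 2.71 and 2.48 CPM against 1.84, 3.17 and 1.73 CPM. Elf3 was under 1 CPM on average, at 0.334 to 1.30 CPM. Elf3 had the most negative estimate of all members (−0.96 ± 0.48, edgeR adjusted p = 0.450), its groups did not overlap, and its counts were among the smallest. Nkx2-1 (−0.13 ± 0.33) and Elf5 (−0.21 ± 0.35) had overlapping groups, again with Igf1r-deleted 2 highest and Igf1r-deleted 3 lowest.

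**Figure D2:**
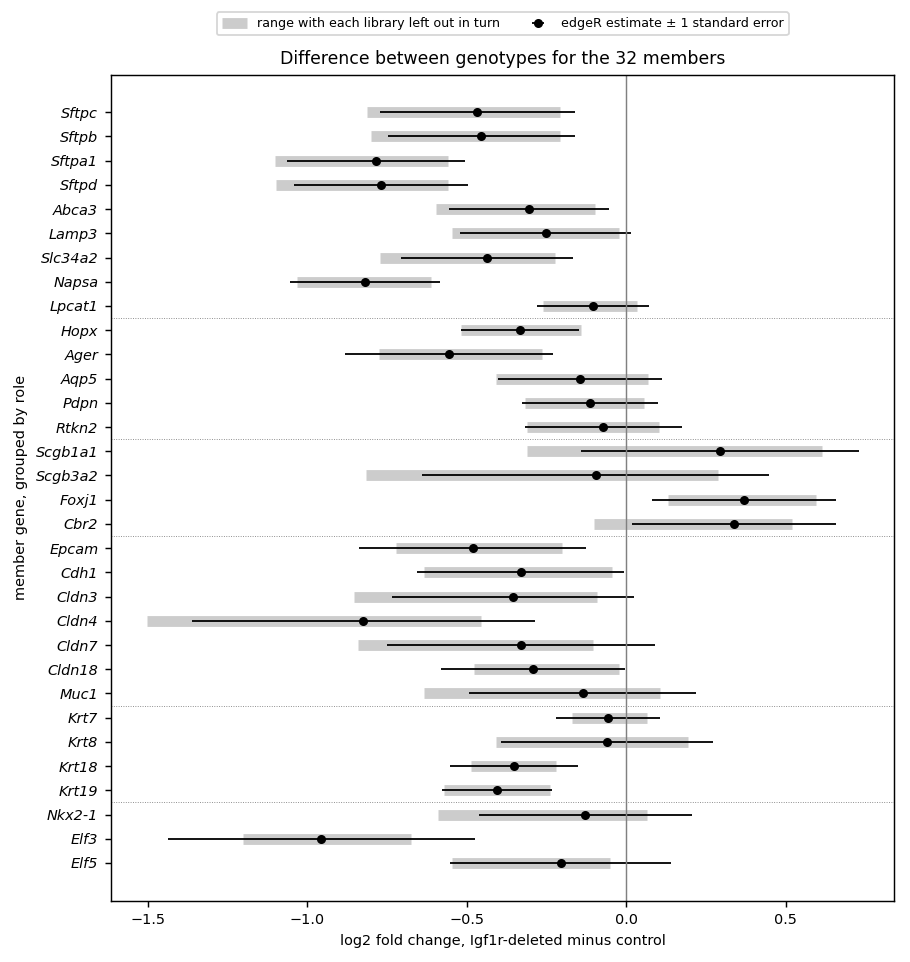
Log2 fold change (Igf1r-deleted minus control) of the 32 members with 1 standard error, from edgeR, and the range of the estimate when each library is left out in turn (grey bars). Of the estimates, 29 lie below 0 and 3 above, and 11 grey bars cross 0.

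Over all 32 members, 29 had a log2 fold change below 0, beside 47.7% of all genes tested, and the members' median was −0.32 beside 0.015 for all genes. The number below 0 was 26 when libraries were scaled by their totals alone and 23 with replicate number as an added term. It was 21 without Igf1r-deleted 3 and 30 without Igf1r-deleted 2. Members share their cells of origin, so they are not independent measurements of this direction. None passed an adjusted p of 0.05 in edgeR (adjusted p from 0.354 to 0.953), and none did in DESeq2 or limma voom. At an unadjusted edgeR p under 0.05, 3 members were lower (9.38% of members, beside 6.75% of all genes) and 0 were higher (beside 5.65%). DESeq2 and voom each gave 4 lower and 0 higher at that level, beside 7.6% lower and 5.63% higher of all genes in DESeq2 and 7.54% and 5.4% in voom. All Igf1r-deleted libraries lay below both controls for 7 members (Sftpa1, Sftpd, Napsa, Ager, Krt18, Krt19 and Elf3; 21.9%, beside 14.9% of all genes) and above both for 0 (beside 16% of all genes). With 2 against 3 libraries, an exact permutation test of a single value cannot go below p = 0.1.

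Igf1r-deleted 2 and Igf1r-deleted 3 were set against each other after the levels had been seen, so counts on this pair are a description. Between Igf1r-deleted 2 and Igf1r-deleted 3, 31 of 32 members were higher in the former, 26 of them at least 1.5-fold (81.2% of members, beside 9.28% of all genes), and the median fold was 2.07. Igf1r-deleted 3 was the lowest and Igf1r-deleted 2 the highest of the 5 libraries for 17 members (53.1%, beside 3.32% of all genes). Igf1r-deleted 2 was the highest library for 21 of 32 members, so leaving it out lowers their Igf1r-deleted mean by construction. The members' median was then −0.59. Leaving out Igf1r-deleted 2 gave 13 members with an unadjusted edgeR p under 0.05, all lower (40.6%, beside 4.15% of the 15100 genes then tested). They were Sftpc, Sftpb, Sftpa1, Sftpd, Abca3, Lamp3, Slc34a2, Napsa, Cldn3, Cldn4, Cldn7, Muc1 and Nkx2-1, and none passed the adjusted threshold. Leaving out Igf1r-deleted 3 gave 3 such members (beside 4.18% of all genes lower) and a median of −0.094. Leaving out control 1 gave 1 member (beside 1.61%), Napsa, which kept an unadjusted edgeR p under 0.05 with each library left out in turn.

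**Figure D3:**
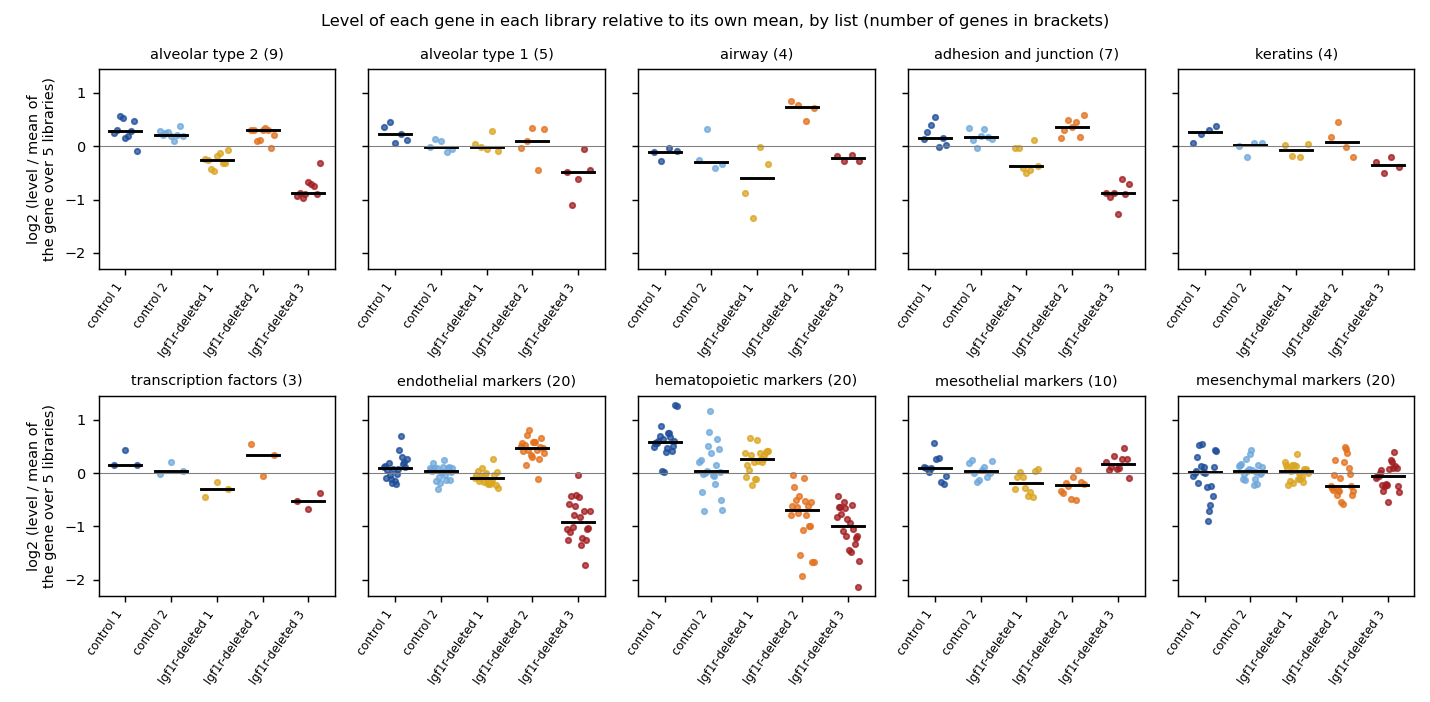
Level of each gene relative to its own mean over 5 libraries (log2, with 0.5 CPM added), 1 panel per list, with points for genes and black bars for medians. In AT2 and adhesion members the median of Igf1r-deleted 3 is near −0.88 and −0.87, endothelial markers show a similar order of libraries, and hematopoietic markers a different one.

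Within a library some alveolar members kept nearly fixed proportions. These ratios were chosen after the levels had been seen and are given as a description. Per 100 Sftpc counts, Sftpb had 25.3 and 23.2 counts in controls and 23.9, 24.4 and 25.3 counts in Igf1r-deleted libraries, a range of 1.09-fold, while Sftpc itself varied 2.37-fold. Per 100 Sftpa1 counts, Sftpd had 16.6 and 17.2 and 16.4, 17.1 and 17.7 counts, a range of 1.08-fold. Sftpa1 per 100 Sftpc counts was 37.3 and 28.9 and 25.9, 25.9 and 28.9, so the 2 collectins moved with each other more closely than with Sftpc, and control 1 was highest. Napsa per 100 Sftpc counts was 4.84 and 4.399 in controls and 3.86, 3.23 and 4.12 in Igf1r-deleted libraries, which did not overlap. It was the only 1 of 8 AT2 ratios lower in all Igf1r-deleted libraries, beside 0.817% of all genes.

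Ratios higher in all 3 Igf1r-deleted libraries were found for Abca3, Lamp3 and Lpcat1 of AT2, for Aqp5 and Rtkn2 of AT1, and for Foxj1 and Cbr2 of airway, beside 32.6% of all genes, and Sftpc itself had a lower mean there. Abca3 was at 7.33 and 7.32 and 7.997, 7.83 and 9.33 counts per 100 Sftpc counts, and Lamp3 at 7.29 and 6.66 and 8.15, 7.75 and 8.73. From highest to lowest library, the ratio to Sftpc changed by a median of 1.38-fold over the 8 AT2 members, 1.72-fold over the 5 AT1 members and 2.74-fold over the 4 airway members. Scgb1a1 per 100 Sftpc counts was 11.4 and 10.1 in controls and 9.33, 21.5 and 24.9 in Igf1r-deleted libraries, near the controls in Igf1r-deleted 1 and above them in Igf1r-deleted 2 and 3.

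**Figure D4:**
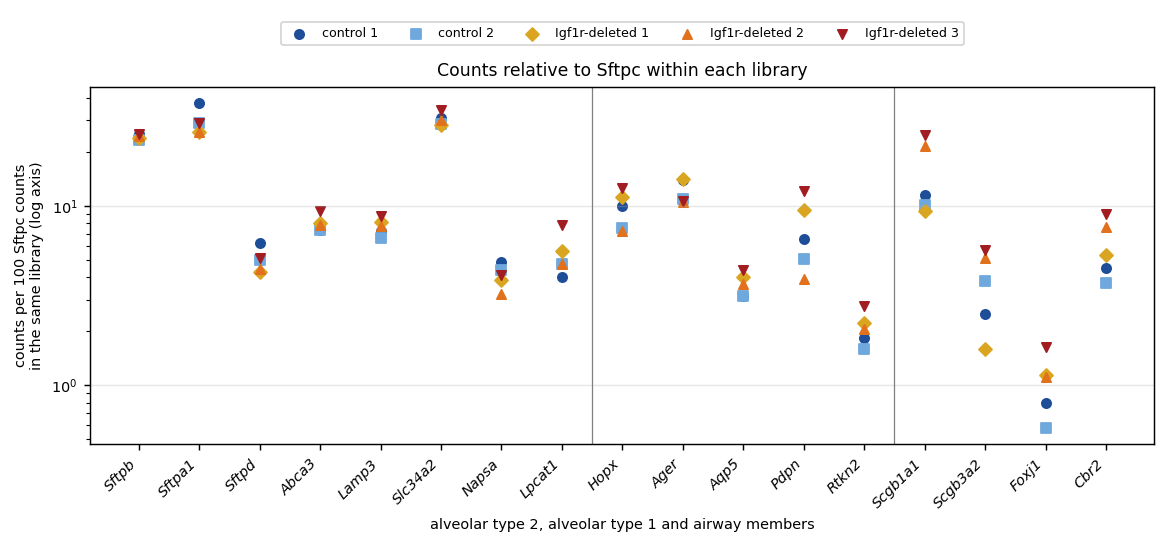
Counts of AT2, AT1 and airway members per 100 Sftpc counts in the same library (log axis), 1 symbol per library. Sftpb stays at 23.2 to 25.3 in all 5 libraries, whereas Scgb1a1 runs from 9.33 to 24.9.

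Markers of other cells that a lung suspension holds were measured beside the members. The 20 endothelial markers, led by Eng (169.6 to 238 CPM), Cdh5 (58.4 to 206 CPM) and Cldn5 (52.6 to 177 CPM), summed to 987 and 941 CPM in controls and 917, 1312 and 567 CPM in Igf1r-deleted libraries. For 16 of 20 of them Igf1r-deleted 3 was lowest and Igf1r-deleted 2 highest (beside 3.32% of all genes), the order seen in 17 of 32 epithelial members. Hematopoietic markers, led by Lyz2, Laptm5 and S100a9, summed to 844 and 539 CPM and 645, 398 and 259.8 CPM. Control 1 was highest for 14 of 20 (beside 4037 of all 15298 genes tested) and Igf1r-deleted 2 highest for none. All 20 had a log2 fold change below 0, 6 of them at an unadjusted edgeR p under 0.05 (beside 6.75% of all genes), with a median of −0.81 that was −0.45 without control 1 and −1.32 without Igf1r-deleted 1. Mesothelial markers, led by Upk1b, Msln and Upk3b, summed to 534 and 549.7 CPM and 467, 417 and 562 CPM, and Igf1r-deleted 3 was lowest for none of the 10 tested. Mesenchymal markers summed to 62209.5 and 58820.1 CPM and 59901, 47830.0 and 50762 CPM. None of these markers was at 0 in all libraries. Their part in the epithelial values was not tested.

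Further epithelial genes, from lists written from general knowledge with earlier results of these data known, were measured in the same way. Of 99 listed, 98 were in the table and 90 were tested. Among the 90, 69 had a log2 fold change below 0 and 21 above, with a median of −0.31, and 12 were lower and 0 higher at an unadjusted edgeR p under 0.05, beside 6.75% and 5.65% of all genes, shares that also stand beside the counts of each list that follow. None passed an adjusted p of 0.05 in edgeR. Of the 35 general epithelial genes tested, Prom1 and Spint2 among them, 5 were lower and 0 higher at the unadjusted level, with a median of −0.34. Further AT2 genes (14, led by Lyz2, Cxcl15 and Lyz1) had a median of −0.38 with 3 lower, and further AT1 genes (12, led by Emp2, Cryab and Spock2) a median of −0.40 with 2 lower. Emp2 (556 to 639 CPM) and Cryab (118 to 142 CPM) had log2 fold changes of −0.0098 and −0.0060. Unlike most members, they differed little between Igf1r-deleted 2 and 3 (Emp2 608 and 556 CPM, Cryab 118 and 120 CPM). Their cell source was not tested. Spock2, a matrix proteoglycan, had 106 and 56.5 CPM in controls and 47.7, 39.7 and 28.8 CPM in Igf1r-deleted libraries, which did not overlap. Its log2 fold change was −1.06 ± 0.29, with an adjusted p of 0.354 in edgeR and 0.0291 in DESeq2, and it was the only further gene called by DESeq2. Lyz2 is also abundant in macrophages and stands in the hematopoietic list too. Cxcl15, a chemokine made by lung epithelium, had 111 and 90.3 CPM in controls and 68.9, 93.5 and 40.9 CPM in Igf1r-deleted libraries, again with Igf1r-deleted 3 lowest.

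Further airway genes were mixed. Of 15 ciliated genes tested, led by Tppp3, Rfx3 and Rfx2, 10 had a log2 fold change above 0 and 5 below, with a median of 0.18 and none at an unadjusted edgeR p under 0.05 in either direction. Secretory genes (8 tested, 2 lower, median −0.51) did not behave as 1 group. Cyp2f2, a cytochrome P450 of club cells, had 11.9 and 9.58 CPM in controls and 6.999, 24.6 and 12.6 CPM in Igf1r-deleted libraries, with Igf1r-deleted 2 highest and Igf1r-deleted 1 lowest as in Scgb1a1. Hp (haptoglobin) had 151 and 24.4 CPM against 29.6, 24.04 and 19.6 CPM, and Aldh1a1 had 76.3 and 33.1 CPM against 39.98, 28.7 and 26.4 CPM, each with control 1 alone above the rest. Basal and neuroendocrine genes were scarce (6 of 10 tested), with Trp63, the basal cell factor, at 0.708 to 1.296 CPM and Uchl1 at 0.696 to 2.102 CPM. Cplx2 was the exception, at 98.03 to 128 CPM.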

How the data were processed

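RNA of GFP-sorted lung cells was sequenced as 150-base paired reads (NEBNext Ultra libraries, Illumina HiSeq) for 2 control and 3 Igf1r-deleted libraries. After trimming (Trim Galore) and alignment to mm10 (Bowtie2), the authors counted reads per gene with Bioconductor's GenomicAlignments and deposited these counts unnormalized. The gene annotation, the treatment of reads matching several genes and the use of strand are not given in the sources used here. The authors' DESeq results and Cufflinks FPKM were not used.

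Groups and replicate numbers came from the sample labels, and columns were matched by name. The test was edgeR 4.0.16's quasi-likelihood F test (R 4.3.3) with TMM factors (0.961 to 1.06), filterByExpr and group as the only term, fitted on all 15298 genes kept, with Benjamini-Hochberg adjustment over them. The fit was first tested on simulated data with known answers. The planted changes were larger than any member's estimate and the spread was capped, so that test does not cover differences of the members' size. CPM were scaled by TMM factors, and TPM used exon lengths of GENCODE M21, which gave a symbol for 22121 genes directly and 991 through an older name. limma 3.58.1 and DESeq2 1.42.0 were alternatives. Nothing says that libraries came from separate litters, so p-values measure the spread between these libraries. Members and lists were chosen with earlier results of these data known. Values per library are given for the 31 members at a mean of 1 CPM or more, and by range for the rest, and 3 genes of highest mean CPM are named for each other list, except 1 gene that is not reported here.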

Additional observations from a re-analysis of the deposited data

How the results depend on the processing

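No epithelial member passed an adjusted p of 0.05 in the 9 alternatives with all libraries or the 5 with a library left out, and DESeq2 gave no adjusted p for Cldn4, Cldn7, Elf3 and Elf5. With all libraries, 279 of 288 values of a member under an alternative kept their direction. The replicate block gave log2 fold changes above 0 for Lpcat1 (0.013), Aqp5 (0.058), Rtkn2 (0.092), Muc1 (0.037), Krt7 (0.066), Krt8 (0.13), Emp2 (0.044), Cryab (0.026), Uchl1 (0.16) and Cdh5 (0.17), and a members' median of −0.14. The labels share numbers 1 and 2 between groups but do not say that a number marks a litter or batch. Number 3 occurs only in the Igf1r-deleted group, so the block's group difference rests on libraries 1 and 2 of each group. Deviations of same-numbered libraries from their group means had correlations of 0.208 and 0.121. The deviations of 2 controls mirror each other, so these values are not separate measurements, and pairing was not tested. The block took all-gene calls at an adjusted p of 0.05 from 0 to 136, and it called Igf1r (−1.04, adjusted p = 0.0139) and the hematopoietic S100a9 (−0.92, adjusted p = 0.0137), which edgeR without it did not. DESeq2 gave 200 such calls, among them Igf1r (−0.94) and Spock2 (−1.07). Scaling by library totals gave values above 0 for Rtkn2 (0.0066), Krt7 (0.017), Krt8 (0.023), Emp2 (0.062), Cryab (0.064), Prom1 (0.0015) and Upk1b (0.043), and moved unadjusted calls over all genes from 1032 lower and 865 higher to 744 and 1343 (64.4% higher). Upper-quartile factors gave Cryab 0.0042, voom gave Lyz1 −0.072 and Cldn5 −0.034, and a filter of 1 count in any library gave 1 further epithelial gene higher. The causes were not tested.

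With each library left out in turn, members lower at an unadjusted p under 0.05 ranged from 1 (without control 1) to 13 (without Igf1r-deleted 2). Over all genes such calls ranged from 252 to 1760 lower and from 181 to 1423 higher, and adjusted calls from 0 to 45 (without control 2). Further epithelial genes ranged from 5 to 19 lower and 0 to 2 higher, with a median from −0.51 to −0.17. Log2 fold changes of 11 members crossed 0, namely Lpcat1 (−0.26 to 0.032), Aqp5 (−0.41 to 0.068), Pdpn (−0.32 to 0.056), Rtkn2 (−0.31 to 0.10), Scgb1a1 (−0.31 to 0.61), Scgb3a2 (−0.82 to 0.29), Cbr2 (−0.10 to 0.52), Muc1 (−0.63 to 0.11), Krt7 (−0.17 to 0.064), Krt8 (−0.41 to 0.19) and Nkx2-1 (−0.59 to 0.066). Of the other genes named, so did Lyz1 (−0.48 to 0.24), Emp2 (−0.098 to 0.068), Cryab (−0.10 to 0.043), Cyp2f2 (−0.14 to 0.79), Tppp3 (−0.080 to 0.13), Rfx3 (−0.26 to 0.00099), Uchl1 (−0.43 to 0.15), Trp63 (−0.52 to 0.30), Prom1 (−0.29 to 0.17), Cdh5 (−0.62 to 0.20), Cldn5 (−0.38 to 0.47), S100a9 (−2.30 to 0.089) and Upk1b (−0.10 to 0.047). Hp was at −2.64 without control 2 but at −0.0040 without control 1, so its difference rested on control 1. With 1 control left, the lone library is assumed to vary like the other group. Low counts limit Elf3, Elf5, Cldn4 and Cldn7 most.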
